A study of Homo sapiens with 5 samples.

Results

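The alpha and beta tubulin genes were taken as the rows whose symbol is TUBA1A, TUBA1B, TUBA1C, TUBA4A, TUBB, TUBB2A, TUBB2B, TUBB3 or TUBB6, which gave 9 genes (4 alpha, 5 beta) of 19716 genes with a read in at least 1 library. All 9 had reads in all 5 libraries. The cells were HEK293T, an established line from human embryonic kidney that expresses the large T antigen of SV40. Each group was 1 RNA-seq library, made from poly(A) RNA 48 h after transfection with 1 ug of plasmid DNA. The 4 fusion groups received 5 uPA sgRNAs together with 1 fusion plasmid. The labels name the fusions dCas9-BFP-DNMT3A, dCas9-BFP-DNMT1, dCas9-BFP-EGFP and dCas9-BFP-DNMT3B. Each is built so that a Cas9 that does not cut is joined to a blue fluorescent protein (BFP) and to the catalytic domain of a DNA methyltransferase or to EGFP. The control group received the plasmid pUC19, which encodes neither dCas9 nor BFP. By the labels RNA came from sorted BFP-positive cells in every group. How cells without a BFP plasmid passed such a sort is not given in the sources used here, so fusion expression, sgRNAs and sorting cannot be told apart in a comparison with pUC19. With 1 library per group, no difference below has a replicate check, and each test compares libraries and not conditions.

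Microtubules are built from dimers of 1 alpha and 1 beta tubulin. Human cells encode several near-identical versions of each, called isotypes, which differ most in the acidic tail at the C terminus, where enzymes add or remove amino acids and where many motor proteins bind. Cells also adjust the stability of tubulin mRNA to the amount of free dimer: the factor TTC5 recognises the first 4 residues of the growing tubulin chain on the ribosome, MREC in alpha and MREI in beta tubulin, and SCAPER and the CCR4-NOT complex then promote decay of the mRNA. TUBA1A, TUBB2A, TUBB2B and TUBB3 are best known from neurons, TUBB is widely used in dividing cells, and TUBB6 is found in many non-neuronal tissues.

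The codons of that first tetrapeptide are shown because they encode the residues that TTC5 recognises. The sequences are from GRCh37, the build of the files, at the GENCODE canonical transcript of each gene, 5′ to 3′ on the coding strand, with the codons after the start codon in capitals. In the alpha genes these 12 bases are split between exons 1 and 2, and in the beta genes they lie in exon 1.
TUBA1A, TUBA1B and TUBA1C: atgCGTGAGTGC
TUBA4A: atgCGTGAATGC
TUBB (chr6:30688284-30688295, plus strand): atgAGGGAAATC
TUBB2A (chr6:3157686-3157697, minus strand): atgCGCGAGATC
TUBB2B (chr6:3227766-3227777, minus strand): atgCGTGAGATC
TUBB3 (chr16:89989810-89989821, plus strand) and TUBB6 (chr18:12308292-12308303, plus strand): atgAGGGAGATC
These codons spell MREC in all 4 alpha genes and MREI in all 5 beta genes, with different codons for the same residues.

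The last 30 coding bases of the beta genes, stop codon included, are shown because the tail is where isotypes differ and because they show which genes short reads can separate. All lie in exon 4. Capitals mark bases that differ between TUBB2A and TUBB2B, and no base is marked in TUBB, TUBB3 and TUBB6.
TUBB (chr6:30692145-30692174, plus strand): ttcggtgaggaggccgaagaggaggcctaa
TUBB2A (chr6:3154097-3154126, minus strand): gaggaggaggagggcgaggacgaggcTtaA
TUBB2B (chr6:3224985-3225014, minus strand): gaggaggaggagggcgaggacgaggcGtaG
TUBB3 (chr16:90002183-90002212, plus strand): gaggagtcggaggcccagggccccaagtga
TUBB6 (chr18:12326100-12326129, plus strand): gaggatgaggaagaggagatcgatggatag
TUBB2A and TUBB2B differed at 2 bases of this stretch.

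Over the whole coding sequence TUBA1A and TUBA1B were 97.2% identical, TUBA1B and TUBA1C 96.8%, and TUBB2A and TUBB2B 98.1%. TUBA4A was 84.4% to 85.7% identical to the other alpha genes, TUBB was 80.9% to 84.7% identical to the other beta genes, and an alpha and a beta gene shared 51.9% to 54.0% of aligned bases. The authors kept reads that mapped to a single place, so reads from sequence shared between genes would be left out of the count of each. Of all stretches of 100 bases, 53.7% in TUBB2A and 44.7% in TUBB2B also occurred in another gene, mostly in each other. The share was 32.1% in TUBA1B, 21.2% in TUBA1A, 12.3% in TUBA1C, 5.4% in TUBB3, 1.9% in TUBA4A and 0.0% in TUBB and TUBB6. These shares are of the GENCODE canonical transcript and can differ in the RefSeq sequence that reads were aligned to. The canonical and deposited lengths were 2823 and 1581 bases in TUBA1C and 1672 and 2490 in TUBA1A. The deposited coverage, a percentage per gene that the authors did not define, ran from 66.9% to 75.5% in TUBB2A and from 69.1% to 72.1% in TUBB2B. In the other 7 genes it was at least 83.8%. Levels of TUBB2A, TUBB2B and the TUBA1 genes are therefore uncertain against those of other members. The comparison of a single gene between libraries uses the same sequence each time, but the part that reads can separate depends on their length. In TUBA1B 56.6% of stretches of 50 bases and 19.1% of those of 150 bases occurred in another gene. Read lengths were not compared between the libraries.

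The libraries held 26.2 M (EGFP) to 36.1 M (pUC19) reads, where M is mega, and the 9 tubulin genes took 0.429% of them in pUC19 and 0.454% to 0.473% in the fusions. PLAU, which encodes uPA and is the gene targeted by the sgRNAs, had 106 reads in pUC19 and 1 to 6 reads in the fusions. Of 5 markers of HEK293T cells all were present in every library, VIM at 437.4 to 599.2 TPM and LIN28B at 31.6 to 64.4 TPM. The other 3 were lower in all fusions than in pUC19: IRS4 stood at 66.3 to 76.5 TPM against 395.9, NEFM at 34.3 to 60.2 against 193 and NEFL at 28.9 to 35.7 against 90.7. Their part in the tubulin values was not tested. Of 8 markers of blood, endothelial, liver and muscle cells, CD3E and CDH5 were at 0 in all libraries and the others did not exceed 2.74 TPM. In bulk RNA a smaller number of cells of a kind and less RNA per cell cannot be told apart.

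Levels are given in TPM, reads per length scaled to a fixed sum per library, so that genes can be compared, with 95% exact Poisson intervals that cover counting error only, since PCR copies were not told apart. TUBB and TUBA1B were each at least 3.43-fold above the next member in every library, and TUBA4A was the lowest. In pUC19 the order, which depends on the deposited gene lengths, was TUBB, TUBA1B, TUBA1C, TUBB6, TUBA1A, TUBB2B, TUBB2A, TUBB3 and TUBA4A. TUBB stood above TUBA1B in pUC19 and in the EGFP and DNMT3B fusions, and below it in the DNMT1 fusion. In the DNMT3A fusion their intervals overlapped (2112 to 2144 and 2102 to 2140 TPM). TUBB6, TUBA1A and TUBB2B changed places between libraries. In the DNMT1 fusion the intervals of TUBB2B (103 to 111.1 TPM) and TUBB6 (95.7 to 103.9 TPM) overlapped. Division of the TPM by the share of 100-base stretches found in no other gene would put TUBA1B above TUBB in pUC19 as well, at 2397 against 2155.

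**Figure D1:**
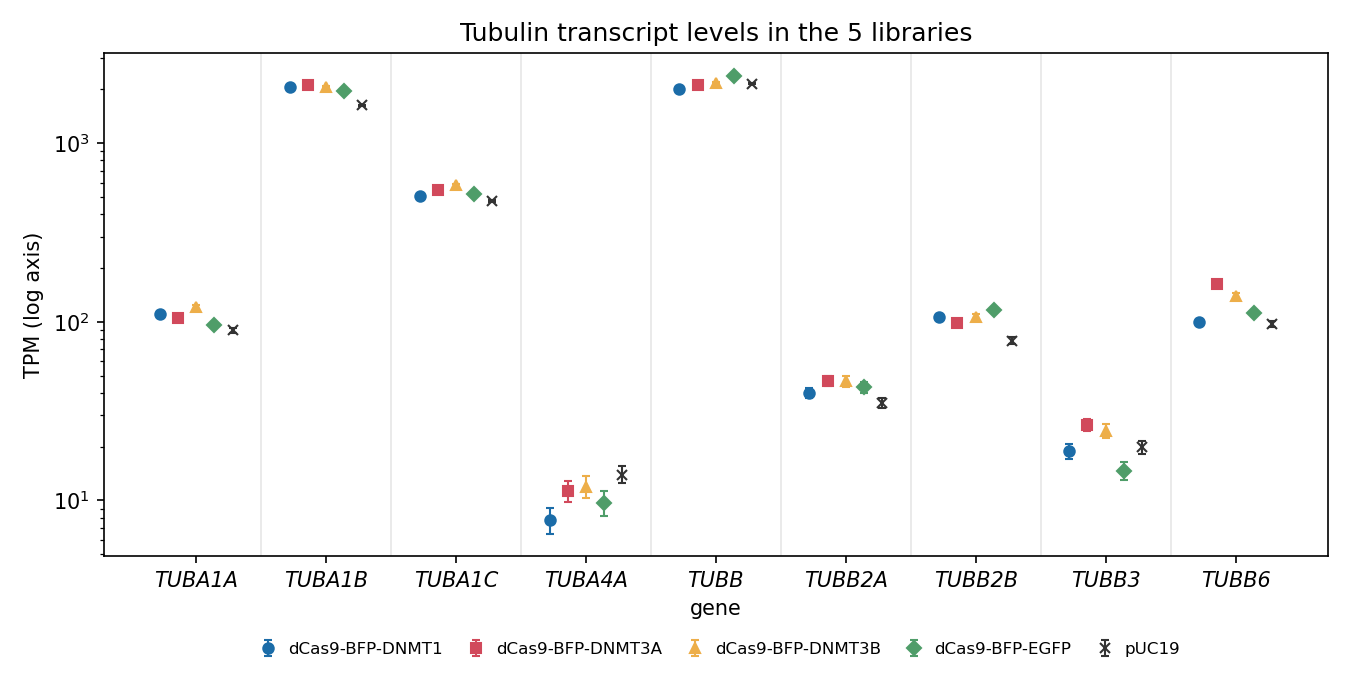
TPM (log axis) of the 9 tubulin genes in the 5 libraries. Points are single libraries and bars are 95% exact Poisson intervals of the reads. TUBB and TUBA1B lie between 1627 and 2361 TPM and TUBA4A between 7.74 and 13.96 TPM, and in 6 of the 9 genes the pUC19 cross is the lowest point.

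Among the alpha genes, TUBA1B, the main alpha isotype of dividing cells (chr12:49521565-49525180, minus strand), had 2072 TPM with the DNMT1 fusion, 2121 with DNMT3A, 2061 with DNMT3B, 1953 with EGFP and 1627 in pUC19. The fusions lay within 1.09-fold of each other and all stood above pUC19, by 1.20-fold (EGFP) to 1.30-fold (DNMT3A). TUBA1C (chr12:49582519-49668383, plus strand) had 508.7, 547.2, 581.4 and 519.3 TPM with the DNMT1, DNMT3A, DNMT3B and EGFP fusions and 473.9 in pUC19. Its excess over pUC19 was smaller, from 1.07-fold to 1.23-fold. TUBA1A, the alpha isotype abundant in developing neurons (chr12:49578469-49582863, minus strand), had 110.9, 105.2, 120.5 and 96.3 TPM in the same order and 89.7 in pUC19. It was again lowest in pUC19, where its interval (86.8 to 92.68 TPM) just missed that of the EGFP fusion, the closest (92.75 to 100.04 TPM). The annotation of TUBA1C overlaps the start of TUBA1A on the opposite strand, and TUBA1A and TUBA1B each overlap the antisense gene TUBA1B-AS1. Whether counting used strand is not given in the sources used here, so reads of these partners may be counted together.

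TUBA4A, an alpha tubulin of low abundance here (chr2:220114432-220142624, minus strand), went the other way from the TUBA1 genes. It had 7.74 TPM with the DNMT1 fusion, 11.3 with DNMT3A, 12.0 with DNMT3B, 9.65 with EGFP and 13.96 in pUC19. All 4 fusions were below pUC19, at 0.557-fold (DNMT1), 0.811-fold (DNMT3A), 0.858-fold (DNMT3B) and 0.694-fold (EGFP). These values rest on 145, 218, 204, 165 and 337 reads, and the pUC19 interval (12.5 to 15.5 TPM) overlapped those of DNMT3A (9.85 to 12.9 TPM) and DNMT3B (10.4 to 13.7 TPM). STK16 and TUBA4B overlap it on the opposite strand.

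Among the beta genes, TUBB, the class I beta tubulin (chr6:30685212-30693315, plus strand), showed the narrowest range of the 9. It had 2012 TPM with the DNMT1 fusion, 2128 with DNMT3A, 2177 with DNMT3B, 2361 with EGFP and 2155 in pUC19, so that pUC19 lay among the fusions and EGFP stood 1.10-fold above it. Its direction against pUC19 in the DNMT1 and DNMT3A fusions turned with TMM scaling, from -0.100 and -0.018 to 0.011 and 0.029 (log2), and is not called here. TMM scaling, which centres each library on the bulk of its genes, added 0.110 (log2) to every gene of the DNMT1 fusion against pUC19 and 0.025 to 0.092 in the others. With TMM the other alpha and beta members kept their side except TUBB3 with the DNMT1 fusion (-0.07 to 0.04).

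TUBB6, the class V beta tubulin (chr18:12307668-12344319, plus strand), held the largest excess over pUC19. It had 99.7 TPM with the DNMT1 fusion, 162.7 with DNMT3A, 139.2 with DNMT3B, 112.0 with EGFP and 96.8 in pUC19. The DNMT3A and DNMT3B fusions were at 1.68-fold and 1.44-fold of pUC19, the EGFP fusion at 1.16-fold, and the DNMT1 fusion at 1.03-fold, where the intervals overlapped. None of its 100-base stretches occurs in another gene.

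TUBB2A (chr6:3153731-3157778, minus strand) had 40.0, 46.5, 46.5 and 43.1 TPM with the DNMT1, DNMT3A, DNMT3B and EGFP fusions and 35.3 in pUC19. Its near-copy TUBB2B (chr6:3223558-3231964, minus strand), also on chromosome 6, had 107.0, 98.0, 106.2 and 116.4 TPM in the same order and 78.6 in pUC19. Both were lowest in pUC19. The order of the fusions was not the same: TUBB2A was highest with DNMT3A and DNMT3B, while TUBB2B was highest with EGFP, at 1.48-fold of pUC19. With the largest part of their sequence shared, their values are the least certain as levels.

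TUBB3, the neuronal class III beta tubulin (chr16:89987800-90005169, plus strand), had the widest range of the 9, 0.85 on the log2 scale. It had 18.9 TPM with the DNMT1 fusion, 26.4 with DNMT3A, 24.6 with DNMT3B, 14.6 with EGFP and 19.8 in pUC19, from 433, 622, 512, 305 and 585 reads. DNMT3A and DNMT3B stood above pUC19 (1.33-fold and 1.24-fold), EGFP below it (0.738-fold), and DNMT1 within its interval. The EGFP fusion was at 0.555-fold of the DNMT3A fusion. TUBB3 overlaps a gene on the same strand, ENSG00000198211, that holds its exons, and the way shared reads were counted is not given in the sources used here.

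Whether any member was changed by a fusion was asked with the thresholds of the study, a fold change of at least 2 on the TPM + 0.1 scale, which slightly understates low genes, and an adjusted p of at most 0.001 in an exact binomial test of reads given the library totals. With the DNMT1 fusion 0 of 9 members were called, beside 1.53% of all tested genes called higher and 3.63% lower. With DNMT3A 0 of 9 were called (4.4% higher and 4.96% lower over all genes), with DNMT3B 0 of 9 (4.47% and 4.29%), and with EGFP 0 of 9 (2.6% and 3.1%). No pair of fusions gave a called member either, but the share of all genes called in those pairs was not computed. At these depths the test alone is passed by small differences, and the limit was the fold: the members farthest from pUC19 were TUBA4A with DNMT1 (log2 -0.84) and TUBB6 with DNMT3A (log2 0.75). Both had small adjusted p-values in the exact test of the library pair, 9.7e-09 and 1.2e-90, and both lost them when a spread between replicates was assumed (adjusted p 0.53 and 0.40 in edgeR's exact test at an assumed variation of 0.2). The median log2 difference over the 9 members was 0.10, 0.32, 0.34 and 0.13 with DNMT1, DNMT3A, DNMT3B and EGFP, beside -0.15, -0.06, -0.05 and -0.003 over all tested genes. The exact test compares shares of reads and the fold compares TPM. For TUBB with DNMT3B these part: its share of reads was 0.227% against 0.239% in pUC19, while its TPM was 1.01-fold of that in pUC19.

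**Figure D2:**
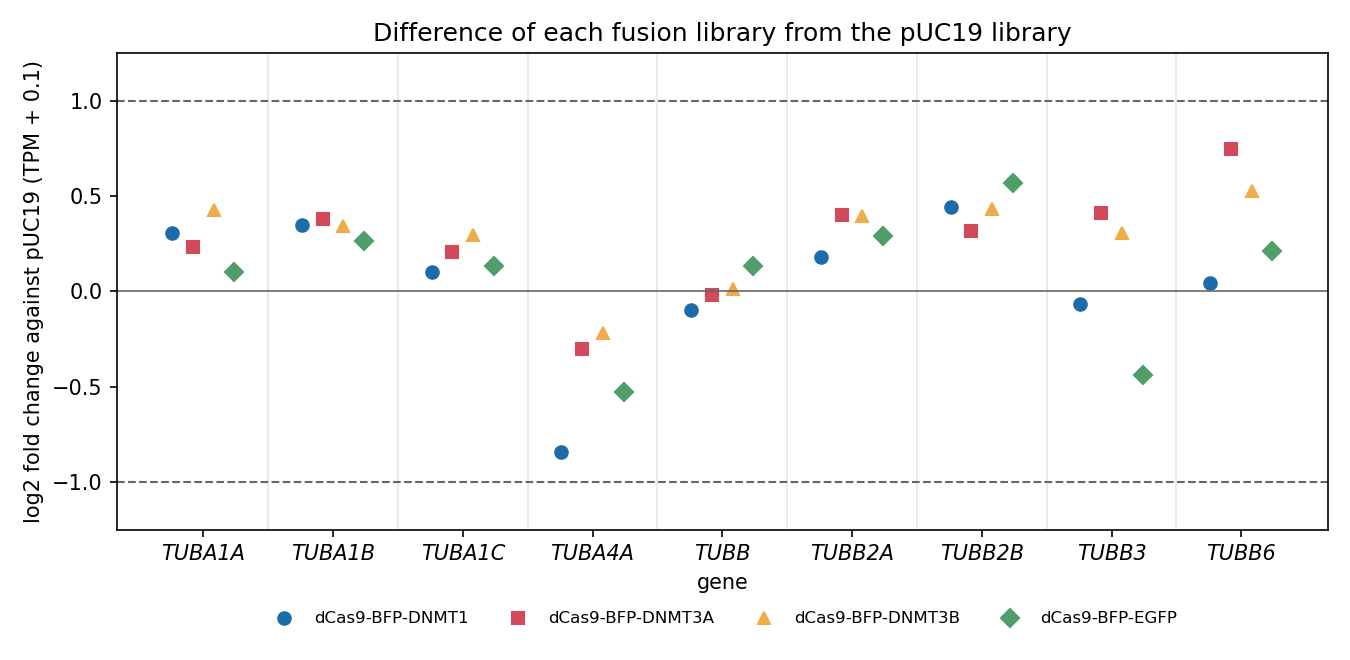
Log2 fold change of TPM + 0.1 against the pUC19 library (y axis) for the 9 tubulin genes, 1 point per fusion library. Dashed lines mark a 2-fold difference. No point passes a dashed line, TUBA4A lies below 0 in all 4 fusions, and TUBA1A, TUBA1B, TUBA1C, TUBB2A, TUBB2B and TUBB6 lie above 0 in all 4.

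By position alone, pUC19 was below all 4 fusions in 6 of 9 members (TUBA1A, TUBA1B, TUBA1C, TUBB2A, TUBB2B and TUBB6), against 19.8% of all genes and 24.7% of the 11364 genes with at least 100 reads in every library. It was above all 4 in 1 member, TUBA4A, against 30.9% of all genes. The 4 fusion comparisons share the pUC19 library, so a value of that library moves all of them together. When the 4 fusions were fitted against pUC19 in edgeR, in which the spread between samples comes from the fusions alone, 0 of 9 members passed an adjusted p of 0.05, beside 0.0937% of all genes higher and 0.644% lower. DESeq2 passed 0 members at an adjusted p under 0.05, beside 977 of all genes. At an unadjusted p under 0.05 the edgeR fit held 1 member, against 18% of all genes. That member was TUBB2B, 0.50 higher on the log2 scale (edgeR adjusted p 0.235). The members' median log2 fold change in this fit was 0.33 (8 higher, 1 lower), and that of all genes 0.03.

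DNMT3A and DNMT3B are de novo DNA methyltransferases, DNMT1 maintains methylation after replication and EGFP is no methyltransferase. The study reports significantly higher methylation at the uPA promoter with the DNMT3A and DNMT3B fusions, but not with DNMT1 or EGFP. The 2 de novo fusions were therefore set against the other 2. DNMT3A and DNMT3B both stood above DNMT1 and EGFP in 5 of 9 members (TUBA1C, TUBA4A, TUBB2A, TUBB3 and TUBB6), against 28.3% of all genes and 37.6% of those with at least 100 reads in every library. They both stood below in 1, TUBB2B, against 22.8% of all genes. In edgeR 0 of 9 members passed an adjusted p of 0.05, beside 6.9% of all genes higher and 4.15% lower. Unadjusted, 2 members were under 0.05, against 28.8% of all genes. TUBB6 came closest, with a log2 fold change of 0.46 (adjusted p 0.052 in edgeR). It did not pass in edgeR with scaling by median ratios (adjusted p 0.051) or without a filter on low counts (adjusted p 0.0755). DESeq2 passed it (0.47, adjusted p 0.021), as did edgeR after each library's trend with GC content and length was taken off (0.42, adjusted p 0.035). Over all genes DESeq2 passed 2146, and edgeR with that trend taken off passed 2320. TUBB3 was higher by 0.54 on the log2 scale, with an edgeR adjusted p of 0.105. With that trend taken off edgeR gave 0.42 (adjusted p 0.102). Leaving out 1 fusion leaves a single library on 1 side, so only log2 fold changes are given here for such fits. Counts from these fits are listed further below only to show how far they move with the processing, and are not read as results. Without DNMT1, DNMT3A, DNMT3B and EGFP in turn they were 0.45, 0.34, 0.58 and 0.48 for TUBB6. For TUBB3 they were 0.82, 0.48, 0.60 and 0.31. With all 4 fusions in the fit the members' median was 0.08, beside -0.01 for all genes.

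TUBA1B, TUBA1C and TUBB made up most of the TPM of the 9 members in every library. The shares of the minor isotypes varied more in proportion. TUBB4B, a beta gene outside the 9, is left out of these shares. It had 643.2 TPM in pUC19 and 868.8 to 978 TPM in the fusions, above TUBA1C in every library. TUBA1B made up 73.8% (pUC19) to 76.8% (DNMT1) of the TPM of the 4 alpha genes, TUBA1C 18.8% (DNMT1) to 21.5% (pUC19), TUBA1A 3.74% to 4.34% and TUBA4A 0.287% to 0.633%. TUBB made up 86.4% (DNMT3A) to 90.3% (pUC19) of the 5 beta genes. Its share was below pUC19 in all 4 fusions. TUBB6 had 4.38%, 6.61%, 5.59% and 4.23% of beta TPM with DNMT1, DNMT3A, DNMT3B and EGFP and 4.06% in pUC19, TUBB2B had 3.29% (pUC19) to 4.70% (DNMT1), TUBB2A 1.48% to 1.89% and TUBB3 0.551% to 1.07%.

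The sum of beta over the sum of alpha TPM was 0.844 with the DNMT1 fusion, 0.884 with DNMT3A, 0.898 with DNMT3B, 1.027 with EGFP and 1.082 in pUC19. The 3 libraries with a methyltransferase domain were below 0.9 and the other 2 above 1. By the study, the DNMT1 fusion among them did not significantly raise methylation at the uPA promoter. The alpha sum was 2699, 2785, 2775 and 2579 TPM in the 4 fusions and 2205 in pUC19, and the beta sum 2277, 2462, 2493 and 2647 against 2386. EGFP and pUC19 thus had a like ratio at different sums. TUBB4B, another widely expressed beta gene that is not among the 9, adds 868.8, 978, 948.6 and 977.5 TPM in the fusions and 643.2 in pUC19. With all 7 alpha and 9 beta genes that have reads the ratio was 1.187, 1.253, 1.263, 1.426 and 1.401, so that EGFP passed pUC19 and the same 3 libraries stayed lowest. After each library's trend with GC content and length was taken off the 9 members gave 0.869, 0.862, 0.871, 1.023 and 1.116, and per share of unique 100-base stretches 0.638, 0.667, 0.682, 0.775 and 0.813. The step between the methyltransferase fusions and the other libraries was seen in all 4 versions. They use the same libraries and are not independent, and the version per unique stretches scales each gene alike in every library. The split of 3 libraries against 2 was seen in these values and not planned, and it was not tested.

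**Figure D3:**
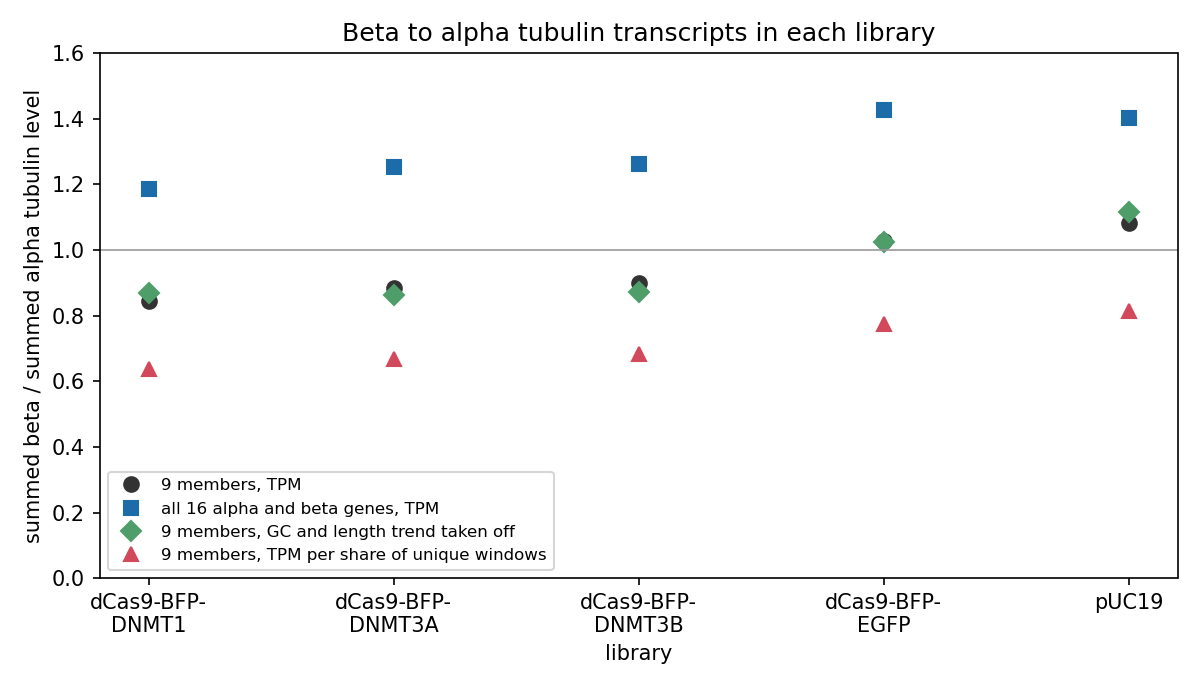
Summed beta over summed alpha tubulin level (y axis, from 0) in each library, in 4 versions: TPM of the 9 members, TPM of all 16 alpha and beta genes, the 9 members with the GC and length trend taken off, and the 9 members per share of unique windows. In each version the DNMT1, DNMT3A and DNMT3B points lie below the EGFP and pUC19 points, for example 0.844 to 0.898 against 1.027 and 1.082 for the 9 members.

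Genes that make, fold, nucleate and modify tubulin were followed in 7 lists, of which 60 genes had a row. The fit of 4 fusions against pUC19 passed 0 of 58 tested. In the fit of DNMT3A and DNMT3B against DNMT1 and EGFP 2 were higher and 3 lower, which is 8.62% of 58, beside 11.05% of all genes. Of 3 genes of tubulin mRNA autoregulation (TTC5, SCAPER and CNOT11), 8 subunits of the CCT chaperonin that folds tubulin and 6 of prefoldin that hands it over, 0 were called against pUC19 in any fusion or passed either fit. The median log2 difference of the autoregulation genes from pUC19 was 0.02, -0.10, -0.07 and 0.04 with DNMT1, DNMT3A, DNMT3B and EGFP.

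Of 11 other tubulin genes, TUBA8, an alpha tubulin of low level, was called higher with DNMT3A (8.98 TPM) and DNMT3B (8.15 TPM) against 3.28 TPM in pUC19, with 5.06 TPM with DNMT1 and 4.04 with EGFP. It also passed the fit between fusions (log2 0.85, edgeR adjusted p 0.049). TUBB1, the beta tubulin of platelets, was called lower with DNMT3B at 14 reads against 54 in pUC19. Of 9 genes of the gamma-tubulin ring complex, which starts new microtubules, MZT1 was called lower with DNMT3A (21.0 TPM) and DNMT3B (21.9 TPM) against 46.7 TPM in pUC19, and stood at 24.4 with DNMT1 and 29.8 with EGFP. MZT2A and MZT2B, near-identical copies whose counts are uncertain, were called higher with DNMT1, at 197 against 93.1 TPM and 213 against 96.7 TPM.

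Of 7 folding cofactors, which join alpha and beta tubulin into dimers, 0 were called against pUC19. TBCC was higher with DNMT3A (50.4 TPM) and DNMT3B (50.5 TPM) than with DNMT1 (27.5 TPM) and EGFP (33.4 TPM), with an edgeR adjusted p of 0.019. Of 16 modifying enzymes, VASH1, which removes the last tyrosine of alpha tubulin, was called lower with DNMT3A (11.3 TPM) and DNMT3B (11.6 TPM) against 26.9 TPM in pUC19, and stood at 13.7 with DNMT1 and 15.7 with EGFP. TTL, which puts the tyrosine back, was lower with DNMT3A and DNMT3B (54.8 and 52.4 TPM) than with DNMT1 and EGFP (66.4 and 74.0 TPM; edgeR adjusted p 0.040). In the same fit the deacetylase HDAC6 (log2 -0.73, edgeR adjusted p 0.032) and the glutamylase subunit TTLL1 (log2 -0.78, edgeR adjusted p 0.047) were lower. The alpha members TUBA1A, TUBA1B, TUBA1C and TUBA4A had log2 fold changes of 0.06, -0.003, 0.08 and 0.37 in that fit (edgeR adjusted p 0.815, 0.991, 0.691 and 0.267), none of which passed.

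Among 10160 genes with at least 5 TPM in all 5 libraries, the 3 whose pattern over the libraries was closest to TUBB3, the member with the widest range, were DEF6, RANGRF and GPSM1, at root mean square distances of 0.035, 0.053 and 0.055 on the centred log2 scale. DEF6 had 8.04, 11.4, 10.3 and 6.57 TPM in the DNMT1, DNMT3A, DNMT3B and EGFP fusions and 8.68 in pUC19, the same order of libraries as TUBB3 except that all 5 values were lower. This likeness rests on 5 values that share library and depth.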

How the data were processed

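HEK293T libraries of poly(A) RNA (1 per group) were sequenced on an Ion Proton. Per the study's methods, the authors aligned filtered reads with tmap to RefSeq RNA sequences (hg19, as in the submitters' processing notes) and kept unique alignments. The version of tmap is not given in the sources used here. The authors deposited, per gene, a read count without normalization, a TPM value made from count and length, and a coverage in percent that is not defined. TPM recomputed from counts and lengths gave the deposited values. Genes without a row were set to 0, and rows without a symbol, at most 0.00581% of reads, stayed in the tests.

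Every pair of libraries was compared by a two-sided exact conditional binomial test (Benjamini-Hochberg adjustment, all genes that had a read in at least 1 of the 2), and a fold was taken on TPM + 0.1. edgeR 4.0.16 (R 4.3.3; TMM, filterByExpr, quasi-likelihood test) was run on the counts. Both were tested on simulated data. Alternatives were DESeq2 1.42.0, other scalings, filters, pseudocount and fold, an edgeR exact test, a loess trend on GC content and length (89.25% of genes had a GC value), and leaving out each fusion. Those on GC content and unique windows for the folds and the ratio of beta to alpha were chosen after seeing the data. Sequences, positions and shared windows come from GENCODE v44 lifted to GRCh37. The deposited length of some members differs from that of the canonical transcript (TUBA1A 2490 against 1672 bases, TUBA1C 1581 against 2823). This moves their level in all libraries alike. The order of the members, the isotype shares and the beta to alpha ratio therefore depend on the length used.

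Groups were taken from sample titles. The members and gene lists were chosen with earlier results of these data known. The text names the 9 members, PLAU, up to 5 genes per list that were called or passed a fit, and the 3 genes most like the member of widest range. TUBB4B and the markers were added for the ratio and the cell type check. The tail sequences of the alpha genes are not reported here.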

Additional observations from a re-analysis of the deposited data

Results flagged for a closer look

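TUBB3 lay on opposite sides of pUC19 in different fusions, although it was called in none of them. Its log2 difference from pUC19 was 0.41 with DNMT3A, 0.31 with DNMT3B and -0.44 with EGFP (exact test, adjusted p 1.1e-05, 0.0235 and 6.9e-06). In edgeR at an assumed coefficient of variation of 0.2 the adjusted p-values were 0.773, 0.914 and 0.83. With each library's trend with GC content and length taken off, these log2 differences were smaller, at 0.256, 0.183 and -0.338. The differences between fusion libraries below are given without that step. Between the fusion libraries, the EGFP fusion against DNMT3A gave -0.85 on the log2 scale and against DNMT3B -0.75, with adjusted p-values of 1.5e-17 and 7.8e-11 in the exact binomial test over all genes. The gene and the pairs were picked for this difference in the same libraries, so these p-values are no independent test, and they cover only the counting of reads. With an assumed coefficient of variation of 0.2 the edgeR adjusted p-values were 0.557 and 0.799. Of the 3 beta genes closest to it in sequence, TUBB2A and TUBB6 were on the same side in EGFP against DNMT3A (log2 -0.11 and -0.54) and TUBB2B on the other (log2 0.25).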

How the results depend on the processing

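No paired analysis was possible because each group is 1 library. The count of members called against pUC19 was 0 in each fusion and became 1 at a fold of 1.5 with DNMT1 (TUBA4A) and 1 with DNMT3A (TUBB6). It was 0 in the other alternatives. In the fit of DNMT3A and DNMT3B against DNMT1 and EGFP it became 1 with DESeq2, 1 with the GC and length offset, and 0 to 2 without single libraries. Over all genes, calls with DNMT1, DNMT3A, DNMT3B and EGFP (982, 1776, 1661 and 1090) became 39, 136, 117 and 59 with an assumed coefficient of variation of 0.2 and 2874, 4273, 4132 and 3091 at a fold of 1.5, and with a pseudocount of 1 TPM 540, 1143, 1108 and 648. The fit against pUC19 passed 118 genes, 977 with DESeq2, 252 without a filter and 65 to 95 without single fusions, lowest without DNMT3A. The fit between fusions passed 1694, 1052 without a filter and 18 (without DNMT3A) to 3850 (without EGFP). With DESeq2 the fit between fusions passed 2146 genes and with the GC and length offset 2320, beside 1 of 9 members in each. At a fold of 1.5, 2874 of 19022 tested genes were called with DNMT1 and 4273 of 18970 with DNMT3A. Beside them stood 1 of 9 members in each. These causes were not tested. In the fit between fusions, the counts made after leaving out 1 fusion come from fits with a single library on 1 side. The spread on that side cannot be measured, so no conclusion is drawn from those counts, for the members or for all genes.

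Directions that turned were those of small differences. Against pUC19, TUBB with DNMT1 was 0.011 with TMM and 0.003 with the GC and length trend taken off, TUBB with DNMT3A 0.029 with TMM, TUBB with DNMT3B -0.081 with the trend taken off, and TUBB3 with DNMT1 0.041 with TMM. In the fit between fusions TUBA1B (-0.003) was 0.0052 with DESeq2, 0.0096 without a filter, 0.0011 with the offset and -0.107 to 0.113 without single libraries, and TUBA1A (0.061) was -0.096 to 0.242. The beta to alpha ratios that moved with gene set, trend or window share are all given above for the 5 libraries: 0.844 became 1.187, 0.869 and 0.638 with DNMT1, 0.884 became 1.253, 0.862 and 0.667 with DNMT3A, 0.898 became 1.263, 0.871 and 0.682 with DNMT3B, 1.027 became 1.426 and 0.775 with EGFP, and 1.082 became 1.401, 1.116 and 0.813 in pUC19.

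Depth limits TUBA4A (145 to 337 reads) and TUBB3 (305 to 622 reads) most.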
